A study of Mus musculus with 12 samples.

Results

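The nuclear genes that encode subunits of the mitochondrial oxidative phosphorylation complexes were followed across 12 subcutaneous 4T1 tumours. Members were taken by symbol from the deposited count table. They were complex I genes (Nduf followed by a, b, c, s or v and a number), complex II genes (Sdha to Sdhd), complex III genes (Uqcr), complex IV genes (Cox4 to Cox8) and ATP synthase genes (Atp5), with pseudogenes left out. Of 89 matching symbols, 86 had at least 10 counts in 3 or more of the 12 libraries, out of 35434 genes in the table. The 3 left out were Cox7b2 and Ndufb11b, with 0 counts in all libraries together, and Cox8c, with 1 count. All 86 members passed the low-count filter that kept 15269 genes for testing. By complex, the members numbered 39 for complex I, 4 for complex II, 8 for complex III, 18 for complex IV and 17 for complex V. Ndufa4 and Ndufa4l2 were placed with complex IV, to which NDUFA4 is now assigned, and so was Cox7a2l, a supercomplex assembly factor.

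4T1 is a mouse mammary carcinoma line that grows in BALB/c mice, and IOX2 is an inhibitor of EGLN1, also called PHD2, the main prolyl hydroxylase that marks the hypoxia-inducible factor (HIF) for degradation. The groups were HI (hypobaric chamber at a simulated 3500 m, with IOX2), HC (the same chamber setting, with vehicle), MI (ambient altitude of about 1500 m, with IOX2) and MC (ambient altitude, with vehicle), each with 3 tumours from 3 mice. All mice were BALB/c females of 6 to 8 weeks that had 3 days to acclimatize before 4T1 cells were placed under the skin. All groups received intraperitoneal injections each day for 10 days, starting 9 days after the cells, of IOX2 at 10 mg/kg or of vehicle, and tumours were taken on study day 22. Altitude and housing in the chamber cannot be told apart, and the tumours were under the skin rather than in the mammary gland. RNA came from whole tumours, so a subunit's level pools tumour cells and host cells, and fewer cells of a type and less RNA per cell cannot be told apart.

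Oxidative phosphorylation couples the oxidation of NADH and succinate to ATP synthesis in the inner mitochondrial membrane. Complexes I and II pass electrons to ubiquinone, complex III passes them on to cytochrome c, complex IV reduces oxygen to water, and complex V, the ATP synthase, uses the proton gradient that complexes I, III and IV build. Most subunits are encoded in the nucleus and imported, and 13 are encoded by the mitochondrial genome. HIF is known to lower the use of oxygen by mitochondria, through the pyruvate dehydrogenase kinase Pdk1 and Ndufa4l2, and to favour a swap of Cox4i1 for Cox4i2. The nuclear genes have long been linked to the transcription factors NRF1, GABPA (an ETS factor) and YY1.

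RefSeq promoter windows (GRCm38.p6, an older build than the GRCm39 named for the deposited tables) were found by symbol for 69 of the 86 members. The 250 bases before the start are shown for Ndufa6 and Ndufb8, the subunits with the smallest p among the lower ones when IOX2 was compared with vehicle at ambient altitude, for Sdhb, a core subunit, and for Cox5b, among the lowest in p for IOX2 over both altitudes. They lie at chr15:82354292-82354541 (minus strand, Ndufa6), chr4:140961021-140961270 (plus strand, Sdhb), chr19:44555443-44555692 (minus strand, Ndufb8) and chr1:36691237-36691486 (plus strand, Cox5b). Sequences are 5′ to 3′ on the gene's strand, and capitals mark the NRF1 core GCATGCGC.
Ndufa6: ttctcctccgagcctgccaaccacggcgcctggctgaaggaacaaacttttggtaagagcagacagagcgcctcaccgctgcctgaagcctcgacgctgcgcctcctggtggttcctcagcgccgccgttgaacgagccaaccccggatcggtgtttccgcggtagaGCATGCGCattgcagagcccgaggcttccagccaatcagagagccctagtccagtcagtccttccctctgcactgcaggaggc
Sdhb: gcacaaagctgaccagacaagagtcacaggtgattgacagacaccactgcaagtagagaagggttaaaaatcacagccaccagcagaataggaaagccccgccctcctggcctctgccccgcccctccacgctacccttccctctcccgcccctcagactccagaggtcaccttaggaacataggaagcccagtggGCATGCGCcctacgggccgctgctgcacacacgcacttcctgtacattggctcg
Ndufb8: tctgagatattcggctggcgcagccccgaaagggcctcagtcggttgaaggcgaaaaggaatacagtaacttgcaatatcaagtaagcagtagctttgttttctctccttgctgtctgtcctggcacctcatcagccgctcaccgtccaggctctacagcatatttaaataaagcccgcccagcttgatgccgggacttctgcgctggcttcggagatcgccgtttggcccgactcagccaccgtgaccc
Cox5b: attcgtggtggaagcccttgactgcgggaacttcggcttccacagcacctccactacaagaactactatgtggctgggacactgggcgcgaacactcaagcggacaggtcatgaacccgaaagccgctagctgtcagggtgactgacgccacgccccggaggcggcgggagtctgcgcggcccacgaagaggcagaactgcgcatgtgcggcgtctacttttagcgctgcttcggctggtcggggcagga
The NRF1 core, searched on both strands, was in 8 of 69 member windows (11.6%) and in 4.4% of the windows of the 11863 tested genes that had one. Besides Ndufa6 and Sdhb, it was in the windows of Ndufa8, Ndufa11, Cox6a1, Atp5g2, Atp5l and Atp5k. The ETS core CCGGAAG was in 17.4% of member windows against 14.1% of all, the YY1 core AAGATGGCG in 1.4% against 1.2%, and the hypoxia response core ACGTG in 21.7% against 24.1%. Those 3 cores were in none of the 4 windows shown, and none of the cores contains another, although the ETS and YY1 cores can share the letters AAG. Letters in a window are a description and say nothing about binding.

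Library totals ran from 31661685 to 40019343 counts, and TMM factors from 0.925 to 1.03. A count of 0 allows up to 3 counts, equal to 0.0728 to 0.0917 CPM (counts scaled for library size with the TMM factors), for counting error only. The labelled tissue fitted its markers: the 8 epithelial tumour-cell markers summed to 3906 to 5055 CPM, and the 4 testis markers to at most 0.153 CPM. IOX2 blocks the EGLN1 enzyme and does not delete its gene, so Egln1 RNA does not check the labels. Egln1 had 272, 191 and 180.2 CPM in HI, 126, 182 and 176 CPM in HC, 154, 186 and 142 CPM in MI, and 148, 171 and 162 CPM in MC. In library 3 of MI, mitochondrial-genome transcripts took 2.96% of counts, against 1.61% to 2.14% in the other 11.

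Transcripts of the respiratory subunits were abundant in these tumours. Per length, in the authors' FPKM (fragment counts scaled for gene length and library size), the median member had 62.3 FPKM, against 5.95 FPKM for the median tested gene. Atp5b, the catalytic beta subunit of ATP synthase, was the highest at 575 ± 42.2 FPKM (SD over 12 tumours), followed by Cox4i1, the general isoform of a regulatory complex IV subunit, at 437 ± 44.7 FPKM and Ndufb9, an accessory subunit of complex I, at 299 ± 25.0 FPKM. The lowest were tissue-restricted isoforms: Cox6b2, the testis isoform of Cox6b1, at 0.525 ± 0.191 FPKM, Cox7a1, the heart and muscle isoform of Cox7a2, at 0.863 ± 0.307 FPKM, and Cox6a2, the heart and muscle isoform of Cox6a1, at 1.45 ± 1.35 FPKM. The median level per complex was 44.1 FPKM for complex I, 77.6 for complex II, 93.7 for complex III, 111 for complex IV and 125 FPKM for complex V. Near-copies of genes were low and their reads may be split with the parent gene: Ndufb4b had 2.81, Ndufs6b 1.67 and Ndufb4c 1.55 FPKM.

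Members varied about as much between tumours as other well-expressed genes did. Among genes averaging 20 CPM or more, the median coefficient of variation over the 12 tumours was 9.26% for 71 members and 10.3% for 8034 genes. Ndufs1, which carries iron-sulfur clusters of the NADH-oxidising arm, had 20.3 ± 1.41 FPKM, and Ndufv1, which binds NADH, 56.8 ± 4.96 FPKM. Sdha, the flavoprotein of succinate dehydrogenase, had 64.4 ± 4.28 FPKM and Sdhb, its iron-sulfur protein, 73.2 ± 7.55 FPKM. In complex III, the core protein gene Uqcrc1 had 136 ± 10.9 FPKM and Uqcrfs1, the Rieske iron-sulfur protein, 69.5 ± 4.07 FPKM. In complex IV, Cox5a had 31.5 ± 2.79 FPKM and Cox5b 154 ± 18.0 FPKM. Atp5a1, the alpha subunit of the ATP synthase head, had 264 ± 20.3 FPKM.

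Most members were high or low in the same tumours, and 2 libraries stood at the ends. Library 3 of MC held the highest value of 62 of the 86 members, and library 3 of MI the lowest value of 38, against 17.9% and 15.2% of all tested genes. Relative to a gene's own average, the median member in libraries 1 to 3 was at -0.070, 0.0057 and -0.064 in HI, at 0.029, 0.075 and -0.041 in HC, at -0.077, -0.014 and -0.18 in MI, and at 0.039, 0.060 and 0.25 in MC, all in log2 units. Every HI and every MI library was below every MC library, and the other pairs of groups overlapped. Members together took 0.776 ± 0.0359% of counts in HI, 0.817 ± 0.0322% in HC, 0.738 ± 0.0768% in MI and 0.844 ± 0.0528% in MC (SD, n = 3 each). By complex, deviations in library 3 of MC were taken over the 77 members averaging 10 CPM or more. Their medians were 0.27, 0.14, 0.18, 0.26 and 0.25 for complexes I to V in order.

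**Figure D1:**
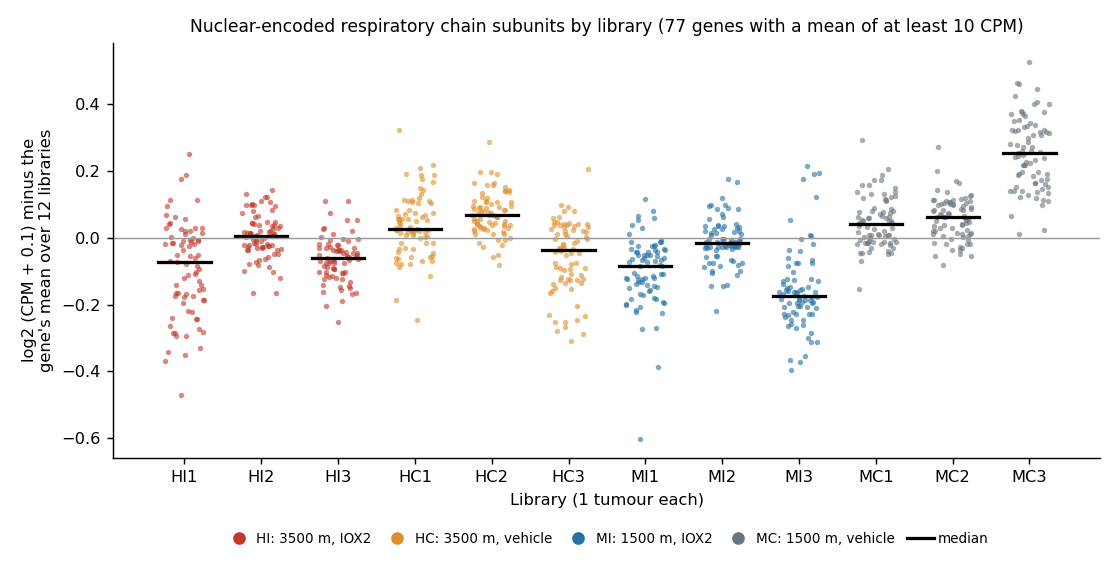
Each point is 1 of the 77 subunit genes that average 10 CPM or more, and each column is 1 tumour; the vertical axis is the log2 of CPM plus 0.1 minus the gene's own mean over 12 libraries, and black bars are medians. The cloud of library 3 of MC sits above the rest, and that of library 3 of MI is the lowest.

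The effect of simulated altitude in mice given IOX2 was asked first, by HI against MI. No subunit passed the test. edgeR's quasi-likelihood test with Benjamini-Hochberg adjustment over 15269 genes called 0 of 86 members at an adjusted p under 0.05, beside 0% of all genes, and DESeq2, limma-voom and limma on log2 FPKM also called 0 members, while DESeq2 called 381 genes in all. At an unadjusted p under 0.05 stood 1 member, Ndufa6, beside 15.2% of all genes. Members were above 0 for 55 and below 0 for 31, with a median log2 change of 0.038, against -0.013 over all genes. Values did not overlap between the groups for 4 members that were higher in HI, beside 8.02% of all genes, and for 1 that was lower, Sdha, beside 6.61%. The median turned to -0.018 without library 3 of MI, and without library 2 of MI it was 0.087 with 9 members under the unadjusted threshold.

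Ndufa6, an accessory complex I subunit that holds the mitochondrial acyl carrier protein, had 48.8, 41.3 and 40.9 CPM in HI, against 36.0, 37.9 and 33.6 CPM in MI. All 3 HI tumours were above all 3 MI tumours, and the log2 change was 0.28 ± 0.087 (SE), with an adjusted p of 0.229. Cox6c, a small complex IV subunit, had 130.1, 141 and 129 CPM in HI and 106, 127 and 109 CPM in MI. It was also without overlap, at a log2 change of 0.23 ± 0.11 and an adjusted p of 0.329. Atp5c1, the gamma subunit of the central stalk, and Ndufb4, in the membrane arm of complex I, were the other 2 members higher without overlap. The negative members with the smallest p at 5 CPM or more were Atp5pb, a peripheral stalk subunit of ATP synthase, at -0.14 ± 0.077 (adjusted p = 0.399), and Uqcrb, a complex III subunit near the quinone site, at -0.16 ± 0.091 (adjusted p = 0.412).

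IOX2 under simulated altitude, HI against HC, also gave no call. edgeR called 0 of 86 members, beside 0% of all genes, and 1 member had an unadjusted p under 0.05, beside 4.85% of all genes. DESeq2, limma-voom and limma on log2 FPKM called 0 members, and DESeq2 22 genes in all. Members below 0 numbered 70 of 86, with a median log2 change of -0.066, against 0.0016 over all genes, of which 49.6% were below 0. Without overlap, 14 members were lower in HI, beside 5.61% of all genes, and 1 was higher, beside 5.74%. The lower ones were spread over the complexes, with 6 in complex I, 2 in complex II, 3 in complex III, 0 in complex IV and 3 in complex V. The median kept its sign when each library was left out, between -0.11 and -0.034.

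The member under the unadjusted threshold was Sdha. It had 168, 177 and 169 CPM in HI, against 199, 186 and 192 CPM in HC, a log2 change of -0.17 ± 0.068 with an adjusted p of 0.964. Every HI tumour was below every HC tumour. All 4 complex II genes were below 0, with a median of -0.13, and Sdhc, a membrane anchor of the complex, was also without overlap. Uqcrb had 48.5, 48.8 and 53.7 CPM in HI and 58.0, 59.6 and 54.6 CPM in HC, which did not overlap, at -0.19 ± 0.091 (adjusted p = 0.964). Ndufv3, a small subunit beside the NADH-binding Ndufv1, was the 1 member higher without overlap, with 48.0, 47.0 and 45.3 CPM in HI and 37.4, 42.0 and 43.7 CPM in HC, at 0.19 ± 0.12 (adjusted p = 0.964).

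Simulated altitude with vehicle was read from HC against MC. edgeR called 0 of 86 members, beside 0% of all genes, and 8 members had an unadjusted p under 0.05 (7 lower in HC and 1 higher), beside 12% of all genes. DESeq2, limma-voom and limma on log2 FPKM called 0 members too, and DESeq2 314 genes in all. Members below 0 numbered 73 of 86, against 52.2% of all genes, and their median log2 change was -0.085, against -0.011 over all genes. Without overlap, 15 members were lower in HC, beside 11.4% of all genes, and 1 was higher, beside 10.3%. Of the 15, 10 were complex I genes. Library 3 of MC carried much of this: without it, 53 members were below 0, 3 had an unadjusted p under 0.05, and the median was -0.022. Without library 1 of MC, 13 were under the threshold and the median was -0.13, and without library 1 or library 3 of HC the count was 5. With the replicate number as a block, edgeR called 0 members and 13 genes in all.

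The 7 lower members under the unadjusted threshold were Ndufa3, Ndufa13, Ndufb4, Ndufb7, Ndufv3, Uqcr10 and Uqcr11, all accessory subunits. Ndufa13, a complex I subunit also known as GRIM-19, had 53.6, 54.3 and 52.2 CPM in HC, against 61.6, 63.0 and 77.6 CPM in MC. The groups did not overlap, and the log2 change was -0.34 ± 0.10 with an adjusted p of 0.270. Uqcr10, a small accessory subunit of complex III, had 47.1, 51.2 and 41.3 CPM in HC and 54.0, 54.9 and 64.2 CPM in MC, at -0.31 ± 0.097 (adjusted p = 0.270). Cox5b, an accessory subunit of complex IV, was at -0.14 ± 0.094, and Sdhb, a core gene, at 0.096 ± 0.092, with overlapping groups for both. Other core subunits, chosen after their values were seen, were at -0.15 ± 0.083 for Ndufs8 and -0.13 ± 0.091 for Ndufv2, and core genes were not tested against accessory ones. Atp5b was the 1 member higher without overlap, with 1117, 1188 and 1149 CPM in HC and 1063, 1083 and 1096 CPM in MC, at 0.092 ± 0.079 (adjusted p = 0.709). Uqcrc1 was also positive, at 0.094 ± 0.079 (adjusted p = 0.701).

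IOX2 at ambient altitude, MI against MC, had the largest shift of the 4 pairwise comparisons, and again no call. In MI, 80 of the 86 members were below 0, against 49.2% of all genes, and the median log2 change was -0.21, against 0.0050 over all genes. The medians were -0.21 for complex I, -0.15 for complex II, -0.18 for complex III, -0.19 for complex IV and -0.23 for complex V. edgeR called 0 of 86 members, beside 0.0262% of all genes, and DESeq2, limma-voom and limma on log2 FPKM called 0 as well. The smallest adjusted p of a member was 0.492. At an unadjusted p under 0.05 stood 38 members, all lower in MI, beside 9.39% of all genes. Without overlap, 42 members were lower in MI, beside 6.32% of all genes, and 0 were higher, beside 4.75%.

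The count under the unadjusted threshold rested on single libraries. Without library 3 of MC, 77 members were still below 0 but 4 had an unadjusted p under 0.05, and the median was -0.14. Leaving out library 3 of MI gave 80 below 0, 12 under the unadjusted threshold and a median of -0.18, and leaving out library 1 of MI gave 16 under the threshold and -0.18. HC against MC and MI against MC share the MC tumours, so their medians, -0.085 and -0.21, are not separate evidence of a lower level.

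Ndufa6 had the smallest p in MI against MC. It had 36.0, 37.9 and 33.6 CPM in MI, against 42.7, 46.1 and 45.1 CPM in MC, a log2 change of -0.31 ± 0.087 with an adjusted p of 0.492. Ndufb8, an accessory subunit of the complex I membrane arm often used as a marker of the assembled complex, had 64.7, 68.2 and 63.4 CPM in MI and 75.0, 74.5 and 86.5 CPM in MC, at -0.27 ± 0.079 (adjusted p = 0.492). For both genes, every MI tumour was below every MC tumour. Cox5b, on the matrix side of complex IV, was at -0.29 ± 0.094 and Ndufa4 at -0.45 ± 0.18. The Ndufa4 value had the largest size among members averaging 10 CPM or more, and its groups overlapped. Among core genes of complexes I and V, Ndufs1 was at -0.081 ± 0.071, Ndufv1 at -0.21 ± 0.085, Atp5a1 at -0.15 ± 0.080 and Atp5b at -0.080 ± 0.079. Of the 6 positive members, 2 averaged over 5 CPM, Atp5pb at 0.021 ± 0.076 and Uqcrb at 0.012 ± 0.091. The other 4 were low in level, with Cox8b at 1.76 ± 1.24 (adjusted p = 0.553), followed by Cox6a2, Cox6b2 and Ndufs6b.

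**Figure D2:**
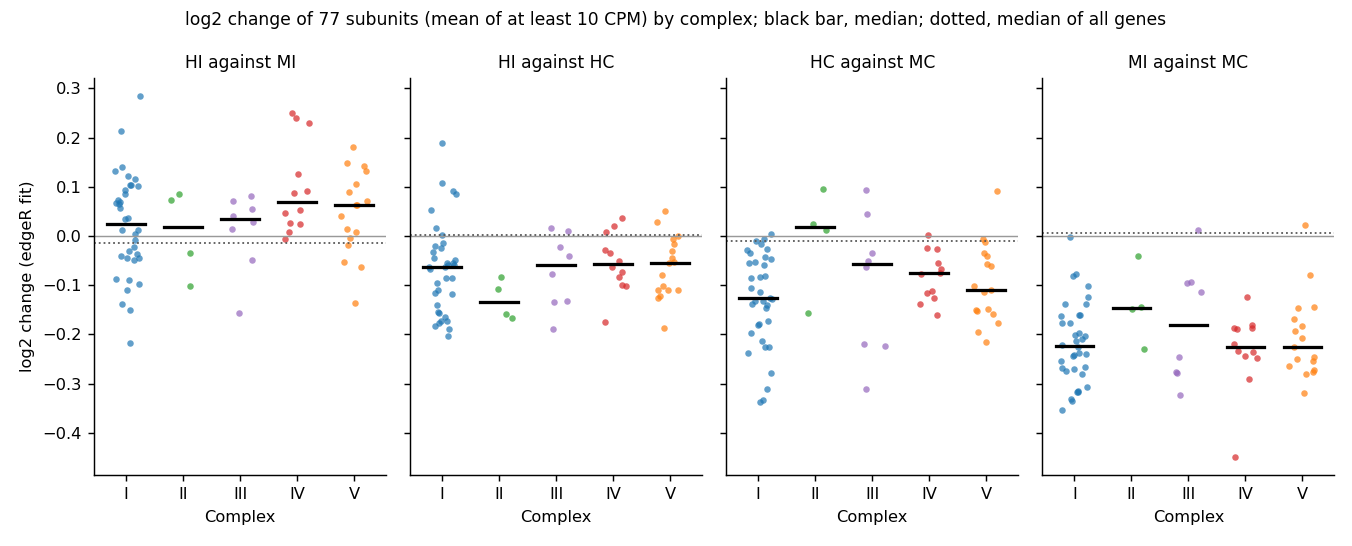
Log2 change from the edgeR fit (vertical axis) of the 77 subunit genes that average 10 CPM or more, by complex and comparison; black bars are medians per complex and the dotted line is the median of all tested genes. In MI against MC, nearly all points of every complex lie below 0, while in HI against MI they spread on both sides.

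In library 3 of MI, 6 members went against the rest by over 0.1 log2 units, chosen after their values were seen: Cox6a2 at 0.44, Ndufc2 at 0.22, Uqcrb at 0.19, Ndufb6 at 0.19, Atp5pb at 0.18 and Ndufb1 at 0.12 above their own means. Atp5pb had 253 CPM there, against 222 and 219 CPM in the other MI tumours, and Ndufc2 49.9 CPM, against 43.3 and 41.4 CPM. This library decided the sign of 2 results near 0: without it, Atp5pb and Uqcrb were at -0.043 and -0.069 in MI against MC.

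**Figure D3:**
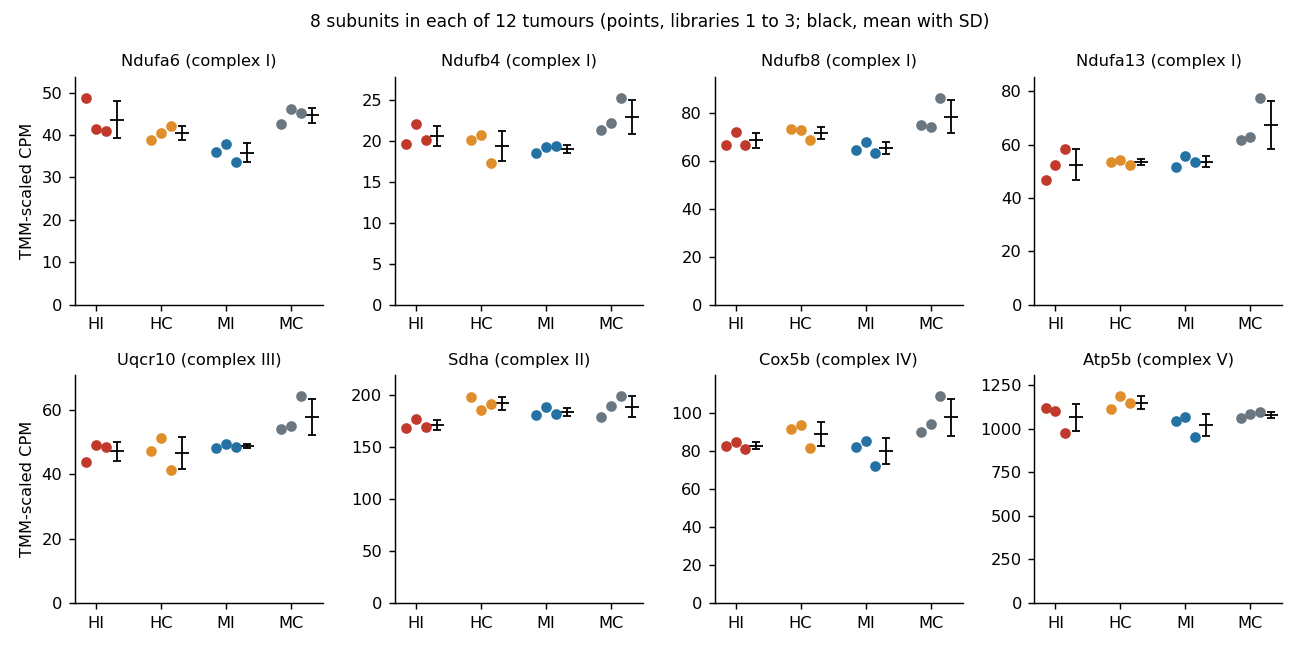
TMM-scaled CPM (vertical axes, from 0) of 8 subunits in the 3 tumours of each group, with the mean and SD in black beside them. Ndufa6 is lowest in MI, Sdha is lowest in HI, and in Ndufa13, Ndufb8 and Uqcr10 all MC tumours lie above the MI tumours.

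Whether the effect of altitude differed with IOX2 was tested by the interaction, (HI against MI) minus (HC against MC). edgeR called 0 of 86 members, beside 0% of all genes, and 5 members had an unadjusted p under 0.05, all positive, beside 8.21% of all genes; DESeq2, limma-voom and limma on log2 FPKM called 0 members, and DESeq2 32 genes in all. Members above 0 numbered 70 of 86, with a median of 0.13, against -0.020 over all genes. Ndufv3 was at 0.52 ± 0.17 and Ndufa6 at 0.42 ± 0.12, both with an adjusted p of 0.596. The others were Ndufb7, Ndufb4 and Atp5l. Leaving out single libraries gave 3 (library 3 of MC or library 1 of MI) to 15 (library 2 of MI) such members. On the negative side, Uqcrb was at -0.20 ± 0.13 (adjusted p = 0.646) and Sdha at -0.13 ± 0.096 (adjusted p = 0.671).

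Averaged over treatment, altitude gave 0 calls among the 86 members by edgeR, beside 0.498% of all genes, and 3 members with an unadjusted p under 0.05, beside 17.3%. All 3 were lower at simulated altitude, namely Ndufa3, Ndufa13 and Uqcr10. Ndufa3, a small membrane-arm subunit of complex I, had 15.7, 17.4 and 17.8 CPM in HI and 17.9, 18.9 and 14.8 CPM in HC, against 19.2, 17.4 and 17.9 CPM in MI and 19.8, 22.2 and 23.0 CPM in MC. Its log2 change was -0.22 ± 0.078 with an adjusted p of 0.195, the smallest of any member in any comparison, and Uqcr10 was at -0.18 ± 0.069 (adjusted p = 0.216). Sdhb and Atp5b had the smallest p of the positive members, at 0.090 ± 0.065 and 0.077 ± 0.056 (both with an adjusted p of 0.494). The median over the members was -0.031, against -0.016 over all genes, and turned to 0.0032 without library 3 of MC, where 1 member was under the unadjusted threshold.

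Averaged over altitude, IOX2 gave 83 of 86 members below 0, against 48.3% of all genes, with a median of -0.13, against 0.0064. edgeR called 0 members, beside 0.0393% of all genes, and 25 had an unadjusted p under 0.05, all lower, beside 5.12% of all genes. DESeq2, limma-voom and limma on log2 FPKM called 0 members in either average. Atp5e, the epsilon subunit of the ATP synthase central stalk, had 43.9, 50.5 and 50.7 CPM in HI and 49.6, 54.0 and 48.1 CPM in MI, against 58.6, 57.6 and 49.0 CPM in HC and 55.7, 57.6 and 71.0 CPM in MC. Its log2 change was -0.23 ± 0.079 and its adjusted p 0.759. Cox5b was at -0.20 ± 0.067 (adjusted p = 0.759). Without library 3 of MC the count under the unadjusted threshold was 5 and the median -0.095. That count was 9 without library 1 of MI, 38 without library 2 of MI, 10 without library 2 of HC, 13 without library 1 of HC, 14 without library 1 of HI and 15 without library 3 of HI.

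Subunit genes are short, and short genes as a class differed between these libraries. The gene length that each FPKM value implies had a median of 755.5 bases among members and of 3537 bases among all tested genes, and 60.5% of members but 5.80% of all genes were at most 1000 bases long. In MI against MC, the median log2 change of all 252 genes of up to 600 bases was -0.22, against -0.25 for the 30 members among them. Above that and up to 1000 bases it was -0.15 for all genes and -0.21 for members, and from 1500 to 2500 bases -0.045 and -0.18, while all genes over 4000 bases stood at 0.070. In HC against MC, genes of up to 600 bases stood at -0.11 and members among them at -0.14. The values were less alike in HI against HC, at 0.0078 and -0.060, and in HI against MI, at 0.12 and 0.027. Genes of up to 600 bases were 0.25 above their own means in library 3 of MC and 0.18 below in library 3 of MI, close to the members' values. With a correction for gene length in each library, chosen after seeing the data, the members' median was -0.029 in HI against MI, -0.051 in HI against HC, -0.029 in HC against MC and -0.057 in MI against MC, and in the last comparison 67 members were below 0 and 7 under the unadjusted threshold. For IOX2 averaged over altitude, the correction gave 68 members below 0, a median of -0.056 and 2 members under the unadjusted threshold, against 25 without it.

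**Figure D4:**
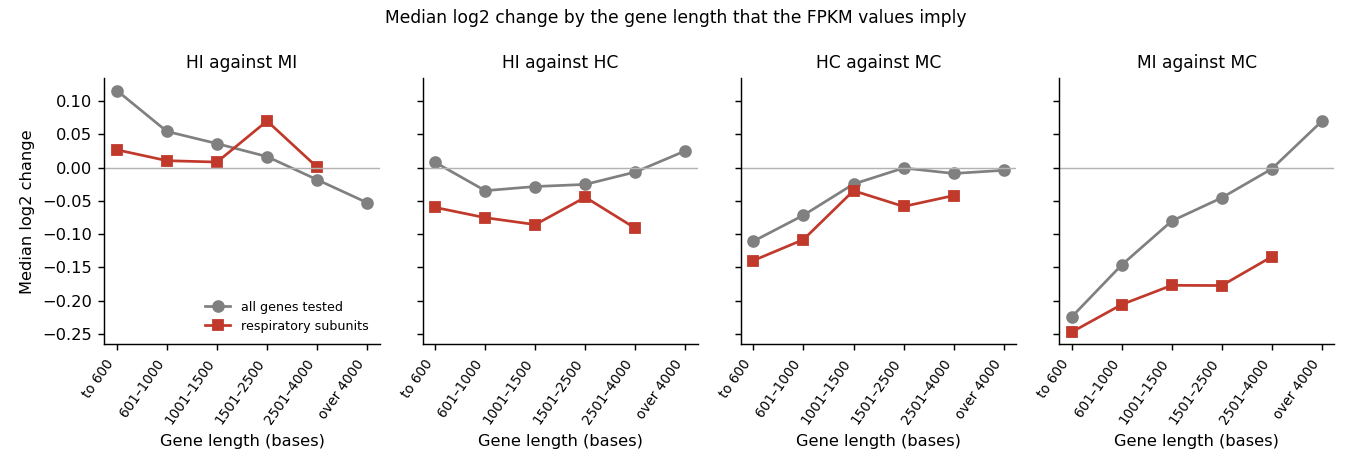
Median log2 change (vertical axis) of all tested genes (grey) and of the respiratory subunits (red) in classes of gene length (horizontal axis, bases), for the pairwise comparisons. In MI against MC both lines climb from about the same value in the shortest class, and the members stay lower in the longer classes.

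Isoform pairs showed the general form as the main one in every tumour. Cox4i1 had 319 to 341 CPM in HI, 335 to 344 in HC, 291 to 329 in MI and 323 to 419 CPM in MC, while Cox4i2, the lung and hypoxia isoform, had 0.962 to 1.87 CPM in HI, 0.887 to 1.47 in HC, 1.04 to 2.18 in MI and 1.23 to 1.78 CPM in MC. Cox4i2 did not pass in any comparison, and its log2 change was 0.27 ± 0.38 for HI against HC and -0.099 ± 0.37 for MI against MC. Ndufa4l2, the HIF-responsive relative of Ndufa4, had 11.4, 6.93 and 6.72 CPM in HI, 7.22, 9.51 and 9.09 CPM in HC, 7.73, 7.96 and 7.10 CPM in MI, and 6.75, 8.28 and 9.13 CPM in MC. Its highest value was in library 1 of HI, which also had the highest Egln1, and the groups overlapped. Ndufa4 itself had 58.9, 74.6 and 76.4 CPM in HI, 88.7, 75.3 and 72.9 CPM in HC, 46.6, 75.3 and 54.7 CPM in MI, and 79.1, 66.9 and 95.1 CPM in MC. The general forms Cox6a1, Cox6b1, Cox7a2, Cox7b and Cox8a each had at least 50.1 CPM in every tumour.

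The muscle and fat isoforms were compared with markers of those tissues. Cox6a2 had 1.12, 0.567 and 0.548 CPM in HI, 2.05, 0.963 and 0.156 CPM in HC, 3.13, 0.0728 and 0.912 CPM in MI, and 1.16, 0.429 and 0.331 CPM in MC. The 14 skeletal muscle markers summed to 224, 205 and 78.8 CPM in HI, 446, 113 and 63.1 CPM in HC, 609, 45.3 and 154 CPM in MI, and 272, 124 and 53.3 CPM in MC, with the highest sum and the highest Cox6a2 both in library 1 of MI. Cox7a1 had 0.235, 0.247 and 0.423 CPM in HI, 0.520, 0.532 and 0.312 CPM in HC, 0.534, 0.218 and 0.314 CPM in MI, and 0.604, 0.479 and 0.331 CPM in MC. It was high in library 1 of MI, HC and MC, which had the highest muscle sums, and also in library 2 of HC. Its highest value, in library 1 of MC, was 24 counts, against 21 in library 1 of MI, too few to rank these tumours. Cox8b, an isoform of muscle and brown fat in rodents, had 0.261, 0.814 and 0 CPM in HI, 1.13, 2.23 and 0.156 CPM in HC, 1.27, 0.146 and 0.228 CPM in MI, and 0.252, 0.126 and 0.102 CPM in MC. The 10 fat-cell markers summed to 49.6 to 348 CPM in HI, 74.8 to 618 CPM in HC, 92.3 to 195 CPM in MI and 48.9 to 84.6 CPM in MC, with the highest sum in library 1 of HC, while Cox8b was highest in library 2 of HC. Ucp1, the uncoupling protein of brown fat, was at 3.57 CPM in library 2 of HC and 1.17 CPM in library 1 of MI, the libraries with the highest and second highest Cox8b, and at or below 0.0740 CPM elsewhere. Cox8b was the only member above 0 with an unadjusted p under 0.05 in HC against MC, at a log2 change of 2.85 ± 1.24 (adjusted p = 0.397) with overlapping groups. The part of tissue carried along with the tumour in these values was not tested.

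**Figure D5:**
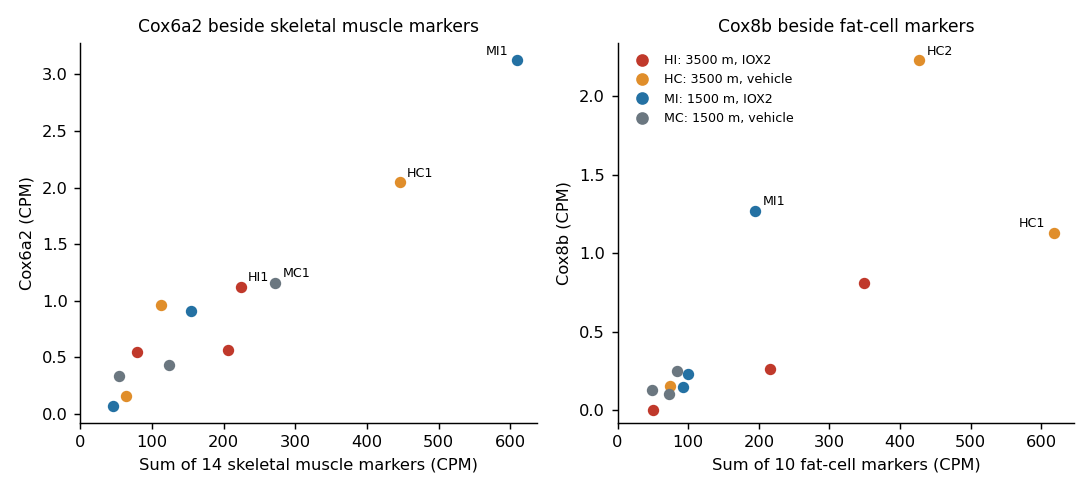
Cox6a2 against the summed skeletal muscle markers and Cox8b against the summed fat-cell markers, in CPM on linear axes, with 1 point per tumour and the tumours over 1 CPM named. Tumours with the highest marker sums had the highest Cox6a2, and Cox8b was highest in library 2 of HC.

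The MI tumours differed from each other in the mitochondrially encoded subunits. Library 2 of MI summed below every MC tumour, and libraries 1 and 3 of MI above. The 13 genes summed to 19942, 15803 and 19128 CPM in HI, 18295, 18421 and 21261 CPM in HC, 21080, 16531 and 31961 CPM in MI, and 18462, 18499 and 18869 CPM in MC. In MI against MC, 12 of 13 were above 0, and the median of their log2 changes was 0.25. For HI against MI, 11 of 13 were below 0, and that median was -0.39. Of the 13, 0 were called by edgeR in all 7 comparisons, beside at most 0.498% of all genes. Under an unadjusted p of 0.05 there were 6 of 13 in HI against MI, beside 15.2% of all genes. For MI against MC there were 0, beside 9.39%. The 13 share library 3 of MI, where their sum was highest, so the 6 cannot be counted as separate results. The smallest p was that of ATP8 in HI against MI, with 4.65, 3.70 and 4.31 CPM in HI and 7.35, 3.11 and 19.7 CPM in MI, at -1.25 ± 0.48 (adjusted p = 0.279). Library 3 of MI stood at a median of 0.72 log2 units above the means of the 13, against 0.18 below for the nuclear subunits. For the 13, libraries 1 and 2 of MI stood at 0.13 and -0.39, so the 3 MI tumours differed in direction.

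Genes that build or feed the chain were not called either, beside at most 0.498% of all genes in any comparison. Of all genes, 49.2% were below 0 in MI against MC and 48.3% for IOX2 averaged over altitude. Mitochondrial ribosomal proteins, which translate the mitochondrially encoded subunits, were below 0 in MI against MC for 73 of 78, with a median of -0.14, and averaged over altitude for 76 of 78, with a median of -0.11. Complex I assembly factors were below 0 in MI against MC for 13 of 16, with a median of -0.093, and assembly factors of complexes II to V for 23 of 33, with -0.085. Sdhaf4, which helps load the flavoprotein of complex II, had the smallest p of these in HC against MC, at -0.67 ± 0.17 (adjusted p = 0.229). Genes of electron carriers, coenzyme Q synthesis among them, stood at a median of -0.055 in MI against MC, with Coq5 at -0.21 ± 0.082 (adjusted p = 0.492), and citrate cycle enzymes at -0.082. Regulators of mitochondrial biogenesis stood at 0.058, with Ppargc1b at 0.58 ± 0.24 (adjusted p = 0.492). Atpif1, the inhibitor of ATP synthase and no member by symbol, had 75.1, 86.7 and 76.6 CPM in MI, against 94.0, 99.9 and 114 CPM in MC, at -0.37 ± 0.10 (adjusted p = 0.492).

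Of 10 HIF-linked switches of mitochondrial use, 0 were called in any comparison. In HI against MI, 9 of 10 were above 0 with a median log2 change of 0.21, and in HI against HC 8 of 10 with a median of 0.17, and both comparisons share the HI tumours. Their summed levels overlapped, at 1101, 855 and 850.3 CPM in HI, 646, 863 and 898 CPM in HC, 714, 831 and 845 CPM in MI, and 778, 826 and 826 CPM in MC, with the highest sum in library 1 of HI. In HI against MI, Pdk3, a pyruvate dehydrogenase kinase, had the smallest p, at 0.30 ± 0.11 (adjusted p = 0.272), before the mitophagy receptor Bnip3, at 0.59 ± 0.24 (adjusted p = 0.293). Pdk1, another such kinase, had 86.6, 66.5 and 70.0 CPM in HI, 35.2, 64.7 and 57.4 CPM in HC, 44.9, 62.0 and 53.5 CPM in MI, and 60.7, 62.4 and 66.3 CPM in MC. Its HI tumours were above those of HC, MI and MC, by 0.48 ± 0.20 against MI (adjusted p = 0.302). Fundc1, also a mitophagy receptor, was the 1 gene below 0, at -0.63 ± 0.29 (adjusted p = 0.329), with 45.7, 47.6 and 63.1 CPM in HI and 58.7, 50.03 and 134 CPM in MI.

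The 8 markers of tumour cells had a lower sum in MI, at 3936, 4298 and 3906 CPM, against 4379, 4485 and 4633 CPM in MC. The sums did not overlap, but 0 of the 8 single markers were without overlap, beside 6.32% of all genes lower and 4.75% higher. Below 0 were 6 of the 8, with a median log2 change of -0.16. At an unadjusted p under 0.05 stood 1, beside 9.39% of all genes, and edgeR called 0 of 8, beside 0.0262%. Pericyte and smooth muscle markers summed to 771, 511 and 621 CPM in MI, against 505, 521 and 463 CPM in MC, with overlap. Above 0 in MI against MC were 14 of 14 skeletal muscle, 9 of 9 fat-cell and 7 of 7 fibroblast markers. So were 7 of 8 endothelial and 5 of 10 leukocyte markers, against 50.8% of all genes, and edgeR called 0 in these lists. The 5 erythroid markers summed to 123, 113 and 87.5 CPM in MI, against 21.0, 19.7 and 19.8 CPM in MC, and edgeR called 4 of the 5 higher. The part of these cells in the subunits' values was not tested.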

How the data were processed

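RNA-seq of 12 tumours gave 1 library per mouse, and its reads were paired and 150 bases long. The build, per the submitters' processing notes, was GRCm39 and the tools included HTSeq 0.11.2 and HISAT2 2.1.0, with fastp 0.20.1, R 3.5.1 and DESeq2 1.22.2. Strand use is not given in the sources used here, nor is the annotation, so overlapping and antisense genes cannot be told apart. The deposited tables hold read counts per gene, not normalized by the authors, and FPKM values, which the authors scaled for gene length and library size. FPKM served for levels, implied gene lengths and an alternative.

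The counts were tested with edgeR 4.0.16 in R 4.3.3 (filterByExpr, TMM, quasi-likelihood, all 12 libraries in 1 fit of 4 groups, 7 comparisons, Benjamini-Hochberg adjustment over 15269 genes, threshold 0.05). Log2 changes carry standard errors derived from the F statistic. Replicates are separate mice. The code was tested on simulated data. Alternatives were DESeq2 1.42.0, limma 3.58.1 (voom and log2 FPKM), other filters and scalings, each library left out, and the replicate block. The labels give no pairing by replicate number, so the main fit used none. Deviations from the group mean correlated over 0.1 for every replicate number only in HC against MC (0.278, 0.153 and 0.209), which does not show that the samples were paired.

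Members and gene lists were chosen with earlier results of these data known. Named members are the isoform pairs, core subunits together with Cox5a and Cox5b, and the 3 highest and lowest by FPKM. Per comparison, up to 2 with the smallest p in each direction at 5 CPM or more are also named. Others, such as those with an unadjusted p under 0.05 or without overlap, were chosen after their values were seen. Of the other lists, up to 3 genes with the smallest p in a comparison are named. Fundc1 and Ucp1 were chosen after their values were seen, and Ucp1 was not among the genes tested. The values of 1 member named by this rule are not reported here.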

Additional observations from a re-analysis of the deposited data

Results flagged for a closer look

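In 2 complex I genes, all 3 HC tumours lay below all 3 MC tumours, while all 3 HI tumours lay above all 3 MI tumours, so that altitude went with opposite directions without and with IOX2. Ndufa6 had 48.8, 41.3 and 40.9 CPM in HI and 36.0, 37.9 and 33.6 CPM in MI, and 38.9, 40.5 and 42.2 CPM in HC against 42.7, 46.1 and 45.1 CPM in MC. Its interaction was 0.42 ± 0.12 on the log2 scale (adjusted p = 0.596, edgeR). Ndufb4 had 19.7, 22.0 and 20.1 CPM in HI and 18.5, 19.2 and 19.4 CPM in MI, and 20.2, 20.8 and 17.4 CPM in HC against 21.3, 22.2 and 25.3 CPM in MC. Its interaction was 0.35 ± 0.14 (adjusted p = 0.596). Neither interaction passed the test over all genes. Of all tested genes, 11.4% were lower without overlap in HC against MC and 8.02% higher without overlap in HI against MI. The share of all genes with both was not counted, so 2 of 86 members cannot be called more than the background.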

How the results depend on the processing

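The count of called members was 0 in all 7 comparisons under every alternative run. The members' median log2 change kept within the spread between replicates except under the gene-length correction, chosen after seeing the data, where it was -0.029 in HI against MI, -0.057 in MI against MC and 0.0099 for the interaction. Leaving out 1 library at a time gave medians of -0.018 to 0.087 in HI against MI, -0.11 to -0.034 in HI against HC, -0.14 to -0.022 in HC against MC, -0.25 to -0.14 in MI against MC, 0.072 to 0.18 for the interaction, -0.052 to 0.0032 for altitude and -0.15 to -0.095 for IOX2. In MI against MC, Atp5pb was -0.0042 and Uqcrb -0.0164 with limma on log2(FPKM + 0.1), and Atp5pb -0.0042 and Uqcrb -0.0162 with log2(FPKM + 1), against positive values in edgeR; leaving out 1 library gave -0.043 to 0.066 for Atp5pb and -0.069 to 0.093 for Uqcrb, and the cause was not tested. Over all genes, DESeq2 called 381 in HI against MI, 22 in HI against HC, 314 in HC against MC, 20 in MI against MC, 32 for the interaction, 866 for altitude and 11 for IOX2, against 0, 0, 0, 4, 0, 76 and 6 by edgeR. For altitude the count was 155 with the replicate block, 166 without a low-count filter, 20 with limma-voom, 12 and 3 with limma on log2 FPKM, and 2 to 339 with 1 library left out. HC against MC gave 63 with its own groups alone, 13 with the block, 2 without a filter and up to 40 with 1 library left out; HI against MI gave 16 without a filter, 2 with a filter of 1 CPM, 1 with DESeq2 size factors and up to 520 with 1 library left out; HI against HC gave 3 with the block; and MI against MC gave 0 to 6 over all alternatives but DESeq2. Outside HC against MC, the deviations of some replicate numbers correlated under 0.1 (0.257, 0.0717 and 0.131 in HI against MI, -0.0208, -0.0745 and 0.244 in HI against HC, and 0.313, -0.0904 and -0.104 in MI against MC). With the replicate block, the median was -0.22 in MI against MC with 34 members under an unadjusted p of 0.05, and -0.094 in HC against MC, and no call on a member differed. With 3 mice a group, an exact permutation test of 1 value cannot go below 0.1.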
